A study of Mus musculus with 23 samples.

Results

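The 6 genes C1qa, C1qb, C1qc, C3, C4a and Serping1 were followed in the cortex of 23 WT mice. They were chosen by name, as the C1q chains, the C3 and C4 components and the C1 inhibitor on a panel of 770 genes, and all 6 were measured in every mouse. RNA extracted from cortex was hybridized to the probes of the nCounter Mouse Neuroinflammation panel, a method that counts barcoded probe pairs directly, without amplification. Dox+LPS mice (n = 6) ate doxycycline chow (100 mg/kg) between postnatal day 3 and 6 wk, had 6 wk of washout, and received an intraperitoneal injection of lipopolysaccharide (LPS, 2 mg/kg) 18 h before harvest. LPS mice (n = 5) never ate dox and received the same injection. Dox mice (n = 4) had the dox chow and the washout, and Untreated mice (n = 8) never ate dox, and by the study's methods both groups were injected with saline. All mice were 12 wk old, of strain B6FVB and genotype WT, from the line CamKIIα-TTA/tetO-APP102 x FVB, so that none carried the transgenes that dox controls in that line, and by the methods they were perfused with PBS before the brain was taken. The groups held 3 females and 3 males (Dox+LPS), 2 and 3 (LPS), 3 and 1 (Dox) and 2 and 6 (Untreated). The comparisons ask how these transcripts answered a systemic immune challenge and whether early dox changed their basal level or that answer.

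Complement is a cascade of plasma proteins that tags cells and debris for removal. In the classical pathway C1q, a molecule built of A, B and C chains encoded by C1qa, C1qb and C1qc, binds its target and switches on the proteases C1r and C1s, which cleave C4 and C2 so that C3 is cleaved in turn. Serping1 encodes C1 inhibitor, which blocks C1r and C1s and also restrains the contact system. In the brain microglia are the main source of C1q, C3 is made by reactive glia and by invading myeloid cells, and C1q and C3 mark synapses that microglia remove.

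Panel totals lay between 645971 and 804471 counts per mouse, and 609 to 694 of the 770 genes exceeded background. Background was taken per mouse as 2 SD above the average of the 8 negative controls (15.2 to 27.5 normalized counts). The labels do not say how the mice relate to litters or cages, so p-values measure the spread between these mice. The count headers give stage position 1 for the 11 LPS-injected mice and 2 for the 12 saline-injected mice, read here as 2 cartridges. For every LPS effect below the injection and the cartridge thus cannot be told apart, whereas mice with and without dox shared a cartridge. A few mice stood apart. Dox+LPS replicate 1 and LPS replicate 3 had the lowest values of several complement genes among LPS-injected mice, and Untreated replicate 3 had the highest C1q and C4a counts among saline-injected mice. Each LPS call of the 6 complement genes by the edgeR test was also obtained without each mouse in turn, and without both LPS replicate 3 and Dox+LPS replicate 1.

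The genes for the C1q chains lie next to each other on mouse chromosome 4 with no other gene of the RefSeq table between them, C3 and C4a are on chromosome 17, and Serping1 is on chromosome 2. The RefSeq table annotates C4a as a transcribed pseudogene (synonym Slp) and lists a separate protein-coding gene C4b. No probe is named C4b, and how far the C4a probe also counts C4b transcripts was not tested, so C4a counts may hold both. RefSeq promoter windows, 250 bases before to 50 bases after the annotated start, were found for 3 of the 6 genes (GRCm38.p6, minus strand, shown 5′ to 3′): chr4:136886151-136886450 for C1qb, chr4:136892865-136893164 for C1qc and chr17:57228087-57228386 for C3. They are shown because C1qb and C1qc are neighbours that moved together but not equally, and because C3 had the largest fold change. Capitals mark motif matches.
C1qb promoter: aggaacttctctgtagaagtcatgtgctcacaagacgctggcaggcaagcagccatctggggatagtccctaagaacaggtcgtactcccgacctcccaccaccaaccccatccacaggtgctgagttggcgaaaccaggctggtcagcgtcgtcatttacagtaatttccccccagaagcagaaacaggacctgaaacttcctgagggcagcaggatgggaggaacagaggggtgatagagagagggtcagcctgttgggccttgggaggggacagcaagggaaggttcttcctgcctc
C1qc promoter: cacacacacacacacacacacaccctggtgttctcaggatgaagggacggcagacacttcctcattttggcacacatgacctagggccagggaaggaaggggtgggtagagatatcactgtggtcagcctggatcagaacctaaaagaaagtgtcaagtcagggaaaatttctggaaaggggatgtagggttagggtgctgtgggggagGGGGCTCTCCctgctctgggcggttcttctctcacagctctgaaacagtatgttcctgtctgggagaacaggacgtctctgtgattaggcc
C3 promoter: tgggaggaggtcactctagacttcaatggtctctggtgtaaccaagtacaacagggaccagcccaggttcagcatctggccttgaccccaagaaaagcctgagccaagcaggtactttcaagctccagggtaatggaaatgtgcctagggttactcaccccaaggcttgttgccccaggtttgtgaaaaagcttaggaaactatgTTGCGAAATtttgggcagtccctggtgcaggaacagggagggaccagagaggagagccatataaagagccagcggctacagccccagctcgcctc
Both strands were searched for GAAA followed after any 2 bases by GAAA (the interferon-stimulated response element), TTCNNNGAA (the gamma-activated site), TTNNGNAAT (C/EBP) and the NF-kB consensus. The C1qc window held 1 NF-kB match and the C3 window 1 C/EBP match, while the other motif searches in the 3 windows found no match. Over 32851 promoter windows of this length, 8.46% held an NF-kB match, 11.5% a C/EBP match, 8.30% a gamma-activated site and 3.44% an interferon-stimulated response element. A match describes letters in the window and not a bound factor.

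All 6 complement transcripts were higher in LPS-injected than in saline-injected mice, without and with prior dox. Between LPS and Untreated mice the increases ran between 1.70-fold for C1qc and 5.68-fold for C3, and between Dox+LPS and Dox mice they ran between 1.72-fold for C1qc and 7.87-fold for C3. The order of the fold changes was the same at both ends, with C3 first and the C1q chains last, and C4a and Serping1 lay between them at 3.26- to 3.93-fold. All 6 passed the edgeR quasi-likelihood test (adjusted p under 0.05 over 770 genes and an absolute log2 fold change above 0.5) in both comparisons, where 16.8% of the panel was called higher in LPS mice and 19.5% in Dox+LPS mice. The median log2 fold change of the 6 genes was 1.38 in LPS mice and 1.48 in Dox+LPS mice, against -0.04 and -0.07 over all 770 genes. The groups did not overlap for 5 of the 6 genes between LPS and Untreated mice, where 13.6% of the panel was higher without overlap, and for 6 of 6 between Dox+LPS and Dox mice, where the share was 18.6%. Bulk RNA cannot separate more cells of a type from more RNA per cell.

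**Figure D1:**
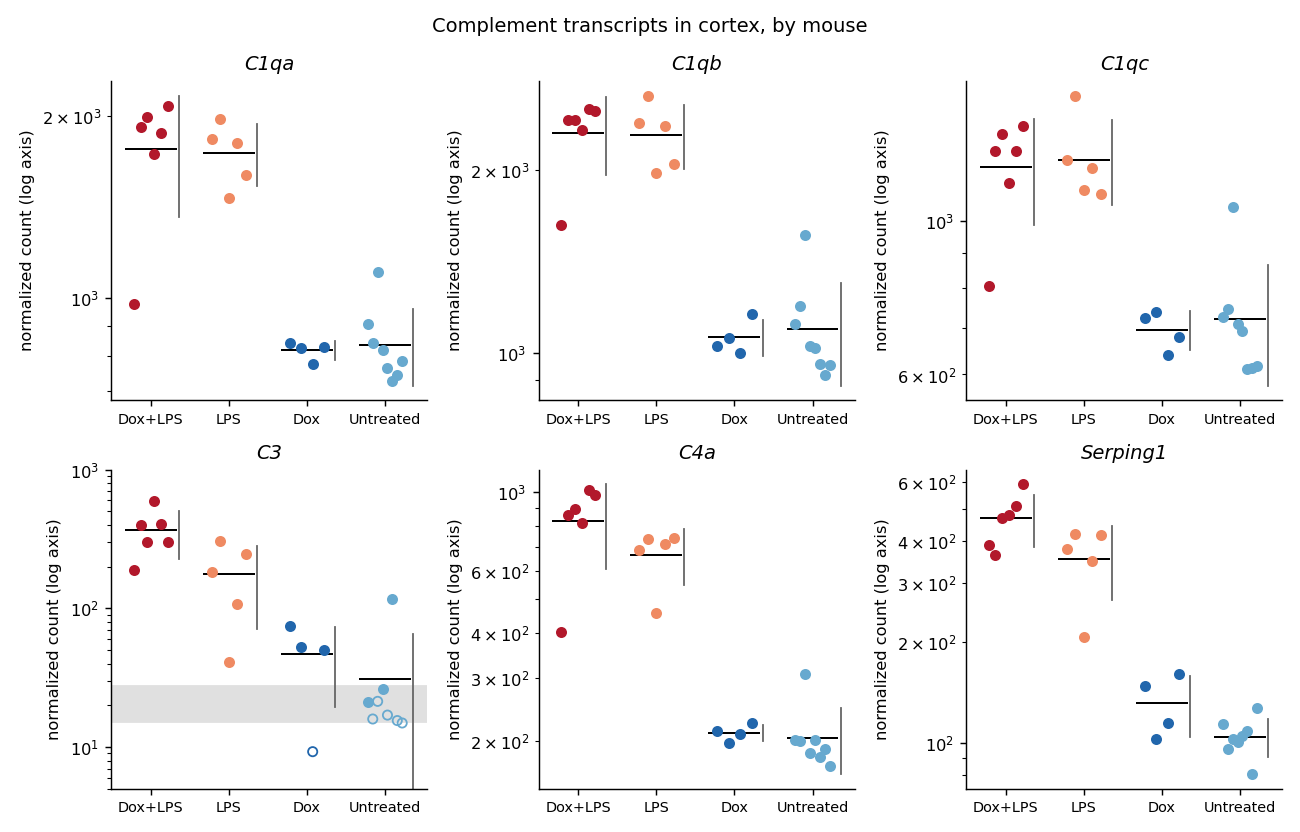
Normalized count of each complement transcript in each mouse (log axes), in Dox+LPS, LPS, Dox and Untreated mice; horizontal lines are group means, vertical lines 1 SD (for C3 in Untreated mice the SD is larger than the mean, so its lower end leaves the axis), open points lie under background and the grey band in the C3 panel spans the background values of the 23 mice. Dox+LPS mice lie above Dox mice for every gene, and LPS mice above Untreated mice for every gene except C3, where LPS replicate 3 (40.8) lies under Untreated replicate 6 (117).

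Markers of other cell types were counted in the same comparisons. Over the panel, 16.8% of genes were called higher in LPS mice and 19.5% in Dox+LPS mice. Of 10 measured homeostatic microglia genes, 6 were lower and 0 higher in LPS than in Untreated mice (5.97% of the panel was called lower), and 7 were lower between Dox+LPS and Dox mice (7.01% of the panel). Their summed level was 2914 to 3871 normalized counts in LPS mice against 4424 to 5142 in Untreated mice, and 2091 to 3534 in Dox+LPS mice against 4861 to 4931 in Dox mice, while Cx3cr1 and Csf1r were among those not called in LPS mice (log2 fold changes of -0.02 and -0.13, adjusted p = 0.927 and 0.253). Of 6 measured macrophage markers 4 were higher and 0 lower in each comparison, with sums of 228 to 1124 in LPS against 67.9 to 111 in Untreated mice and 518 to 892 in Dox+LPS against 67.9 to 97.0 in Dox mice. The macrophage scavenger receptor genes Msr1 and Marco averaged 343 ± 217 and 100.2 ± 76.3 in LPS mice and 373 ± 119 and 111 ± 44.2 in Dox+LPS mice, whereas Ccr2, a receptor of monocytes entering from blood, exceeded background in 1 of 5 LPS, 0 of 6 Dox+LPS, 0 of 4 Dox and 1 of 8 Untreated mice, and Cd209e in none. Of 6 neutrophil genes 3 were higher and 0 lower in each comparison (sums of 230 to 387 in LPS against 139 to 194 in Untreated mice, and 363 to 434 in Dox+LPS against 148 to 182 in Dox mice). The 3 were Fpr1, Il1r2 and Ncf1, and Ncf1 alone averaged 185 in LPS against 71.9 in Untreated mice. In Dox+LPS mice Ncf1 averaged 221, against 72.5 in Dox mice. Csf3r (log2 fold changes of 0.02 and 0.09) and Ceacam3 were not called. Ly6g, the defining marker of mouse neutrophils, stayed under background in all 23 mice. Of 10 oligodendrocyte genes 6 were lower in each comparison, with sums of 21158 to 24335 in LPS against 29141 to 36821 in Untreated mice and 21835 to 26428 in Dox+LPS against 32236 to 34387 in Dox mice. Of 13 neuronal genes 1 was lower in LPS and 2 in Dox+LPS mice (sums of 54994 to 60022 in LPS against 63229 to 70021 in Untreated mice, and 52099.6 to 54762 in Dox+LPS against 61686 to 70054 in Dox mice). The 6 astrocyte genes gave 1 and 0 calls and the 7 endothelial genes 1 and 2, all higher. These neuronal, astrocyte and endothelial calls are too few to set apart from the panel shares. Ttr of the choroid plexus, at 50.0 to 2746 over all mice, gave no call. The part of any of these cell types in the complement changes was not tested.

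C1qa, the A chain, had 1832, 1983, 1464, 1805 and 1598 normalized counts in the 5 LPS mice. Untreated mice ranged between 729 and 1103 with a median of 804, so the lowest LPS mouse was well above the highest Untreated one. Dox+LPS mice had a lowest value of 978, a median of 1899.6 and a highest of 2079, and Dox mice had 843, 827, 777 and 830.4. Dox+LPS replicate 1, at 978, was far under the other Dox+LPS mice (1732 to 2079), and it still exceeded every Dox mouse although not every Untreated one. The log2 fold change was 1.05 (SE 0.12, adjusted p = 1.7e-07) between LPS and Untreated mice. Between Dox+LPS and Dox mice it was 1.11 (SE 0.15, adjusted p = 1.2e-06), and 1.23 without Dox+LPS replicate 1.

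C1qb, the B chain, had 2389.95, 2651, 1979, 2359.9 and 2043 normalized counts in LPS mice. Untreated mice had a lowest value of 917, a median of 1020.3 and a highest of 1565. Dox+LPS mice had a lowest value of 1623, a median of 2417 and a highest of 2515, and Dox mice had 1024, 1059, 997 and 1159.8. In both comparisons every LPS-injected mouse was higher than every saline-injected one. The log2 fold changes, 1.06 (SE 0.11, adjusted p = 2.2e-08) in LPS and 1.12 (SE 0.13, adjusted p = 1.8e-07) in Dox+LPS mice, were close to those of C1qa.

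C1qc, the C chain, had 1223, 1518, 1108, 1191 and 1094 normalized counts in LPS mice. Untreated mice had a lowest value of 612, a median of 702 and a highest of 1047, and the groups were separated only by the gap between 1047 and 1094. Dox+LPS mice had a lowest value of 805, a median of 1261 and a highest of 1370.0, and Dox mice had 724, 739, 639 and 679. The highest Dox mouse thus stayed under the lowest Dox+LPS mouse. The log2 fold changes of 0.77 (SE 0.12, adjusted p = 1.0e-05) in LPS and 0.78 (SE 0.14, adjusted p = 5.6e-05) in Dox+LPS mice were the smallest of the 6 genes.

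Whether the chains changed equally was asked with the ratio of their counts within a mouse, which does not depend on how libraries are scaled but says nothing of their absolute proportions, since each probe has its own efficiency. C1qc was lower relative to C1qb in LPS-injected mice. The C1qc to C1qb ratio was 0.512, 0.572, 0.560, 0.505 and 0.535 in LPS mice, and between 0.626 and 0.692 with a median of 0.660 in Untreated mice. It was between 0.488 and 0.553 with a median of 0.512 in Dox+LPS mice, and 0.708, 0.698, 0.641 and 0.585 in Dox mice. No LPS-injected mouse reached the lowest saline-injected one. The mean log2 ratio was lower by 0.30 in LPS than in Untreated mice (two-sided exact permutation test, p = 0.00155, adjusted p = 0.00932 over 12 tests), and lower by 0.34 in Dox+LPS than in Dox mice (p = 0.00952, the smallest that 6 against 4 mice allow, adjusted p = 0.0381).

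C1qc was lower relative to C1qa too. That ratio was 0.668, 0.765, 0.756, 0.660 and 0.684 in LPS mice against 0.784 to 0.949 (median 0.851) in Untreated mice, a difference of -0.28 in mean log2 ratio (exact permutation test, adjusted p = 0.00932). In Dox+LPS mice 5 ratios lay between 0.655 and 0.671 and replicate 1 stood at 0.824, against 0.859, 0.893, 0.823 and 0.818 in Dox mice. With all mice the difference of -0.30 did not pass the exact permutation test (adjusted p = 0.0857), and without Dox+LPS replicate 1 it was -0.36 (adjusted p = 0.0476). The C1qb to C1qa ratio averaged 1.34 ± 0.170 in Dox+LPS, 1.32 ± 0.0288 in LPS, 1.29 ± 0.0757 in Dox and 1.30 ± 0.0835 in Untreated mice (SD, n = 6, 5, 4 and 8) and differed in none of the 4 comparisons by the exact permutation test (adjusted p = 0.983). No ratio differed between mice with and without dox by the same test (adjusted p between 0.696 and 0.983).

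**Figure D2:**
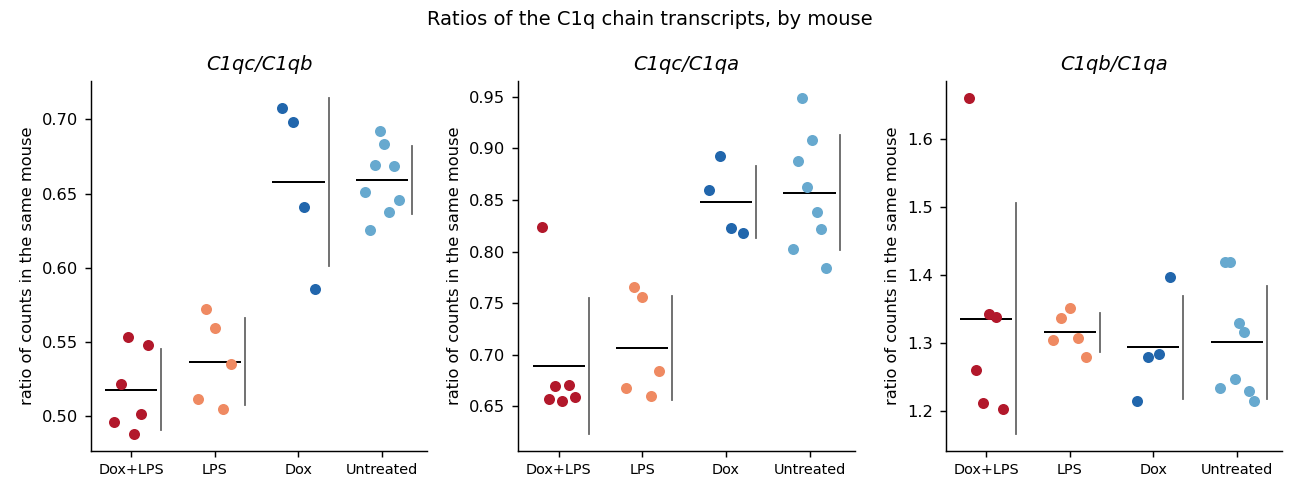
Ratios of C1q chain counts within each mouse, in Dox+LPS, LPS, Dox and Untreated mice; points are mice, horizontal lines group means and vertical lines 1 SD. The C1qc to C1qb ratio separates the LPS-injected mice (0.488 to 0.572) from the saline-injected mice (0.585 to 0.708), and Dox+LPS replicate 1 stands alone in both ratios to C1qa (1.66 and 0.824).

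C4a, known in mice for the sex-limited protein related to C4, is annotated as a transcribed pseudogene, and its counts may hold C4b transcripts. C4a had 683, 734, 456, 713 and 740.4 normalized counts in LPS mice. Untreated mice had a lowest value of 169.8, a median of 194.5 and a highest of 307. Dox+LPS mice had a lowest value of 404, a median of 878 and a highest of 1013, and Dox mice had 212, 197, 209 and 224. The lowest mice of the LPS-injected groups, LPS replicate 3 and Dox+LPS replicate 1, were still above every saline-injected mouse. The log2 fold change was 1.70 (SE 0.16, adjusted p = 6.3e-09) between LPS and Untreated mice and 1.98 (SE 0.20, adjusted p = 1.6e-08) between Dox+LPS and Dox mice.

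C3, the component on which all complement pathways converge, had counts near background in many saline-injected mice and varied most within groups. It had 183, 308, 40.8, 107 and 245 normalized counts in LPS mice. Untreated mice had a lowest value of 14.9, a median of 19.1 and a highest of 117, and only 3 of 8 exceeded background. In Dox+LPS mice the lowest value was 189, the median 349 and the highest 593, and Dox mice had 74.6, 52.3, 9.26 and 50.1, of which 3 exceeded background. LPS replicate 3 (40.8) was under Untreated replicate 6 (117), the only overlap of the LPS and Untreated groups in any of the 6 genes. Within-group coefficients of variation were 37.7% in Dox+LPS, 60.1% in LPS, 58.5% in Dox and 112% in Untreated mice, where those of the other 5 genes lay between 3.54% and 26.6%.

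The log2 fold change of C3 was 2.50 (SE 0.48, adjusted p = 0.000126) between LPS and Untreated mice, with a 95% interval of 2.84- to 11.3-fold. Between Dox+LPS and Dox mice it was 2.98 (SE 0.58, adjusted p = 0.000131), with an interval of 3.42- to 18.1-fold. Untreated replicate 6 weighed on the C3 baseline. Without it the log2 fold change between LPS and Untreated mice was 3.22 (adjusted p = 1.1e-06). Since 5 of the other 7 Untreated mice lay under background, the size of either value is not a measured fold. Dox replicate 3 (9.26) lay under background too, so the size of the 2.98 is also uncertain.

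Serping1, the C1 inhibitor gene, had 378, 421, 207, 349 and 418 normalized counts in LPS mice. Untreated mice had a lowest value of 80.6, a median of 104 and a highest of 127. Dox+LPS mice had a lowest value of 365, a median of 474 and a highest of 591, and Dox mice had 148, 102, 114 and 159.9. LPS replicate 3 (207) lay under every other LPS-injected mouse and above every saline-injected one. The log2 fold change was 1.77 (SE 0.15, adjusted p = 6.0e-10) between LPS and Untreated mice and 1.83 (SE 0.18, adjusted p = 7.8e-09) between Dox+LPS and Dox mice. The lower ends of the 95% intervals, 1.46 in both comparisons, lay above the highest upper ends among the C1q chains, 1.31 in LPS and 1.41 in Dox+LPS mice. The lower ends of C4a (1.37 and 1.56) and of C3 (1.51 and 1.77) did so too.

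Early dox with washout left basal complement transcripts without a call. Between Dox and Untreated mice the log2 differences of the C1q chains were between -0.05 and -0.03 and that of C4a was 0.04, with 95% intervals that lay within -0.35 and 0.44. None of the 6 genes and none of 770 passed the test (0.0% called), and 41 panel genes but no member had an unadjusted p under 0.05. Serping1 averaged 131 ± 27.2 normalized counts in Dox mice and 104 ± 13.6 in Untreated mice (SD, n = 4 and 8), a log2 difference of 0.33 (95% interval -0.02 to 0.68, edgeR adjusted p = 0.811). C3 averaged 46.5 ± 27.2 in Dox mice and 31.1 ± 34.8 in Untreated mice, a difference of 0.57 (-0.65 to 1.78, adjusted p = 0.980), which was 1.28 without Untreated replicate 6 and still not called. At these levels, close to background, a moderate C3 difference was not detectable.

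After LPS the C1q chains were level between mice with and without dox, and the other 3 transcripts were higher in Dox+LPS mice without passing the test. C1qa averaged 1764 ± 402 normalized counts in Dox+LPS mice and 1737 ± 205 in LPS mice (SD, n = 6 and 5), C1qb 2299.7 ± 339 and 2285 ± 275, and C1qc 1195 ± 207 and 1227 ± 172. Their log2 differences were 0.02, 0.01 and -0.04, with 95% intervals within -0.30 and 0.30. C3 averaged 365 ± 137 in Dox+LPS mice and 177 ± 106 in LPS mice, a log2 difference of 1.04 (0.08 to 2.00, unadjusted p = 0.0349, adjusted p = 0.333 by edgeR). Serping1 averaged 467 ± 82.4 in Dox+LPS mice and 355 ± 87.7 in LPS mice, a difference of 0.40 (0.08 to 0.71, unadjusted p = 0.0157, adjusted p = 0.276 by edgeR). C4a averaged 828 ± 220 in Dox+LPS mice and 665 ± 119 in LPS mice, a difference of 0.32 (-0.04 to 0.67, adjusted p = 0.438). No panel gene was called (0.0%), and 102 of 770, C3 and Serping1 among them, had an unadjusted p under 0.05. The Dox+LPS and LPS groups overlapped for all 6 genes. LPS replicate 3 was the lowest LPS mouse in C3 (40.8), C4a (456) and Serping1 (207). With 1 mouse left out in turn, the log2 difference ran between 0.79 and 1.33 for C3 and between 0.21 and 0.45 for C4a. For Serping1 it ran between 0.25 and 0.46. The low end for each of these 3 genes was reached without LPS replicate 3.

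**Figure D3:**
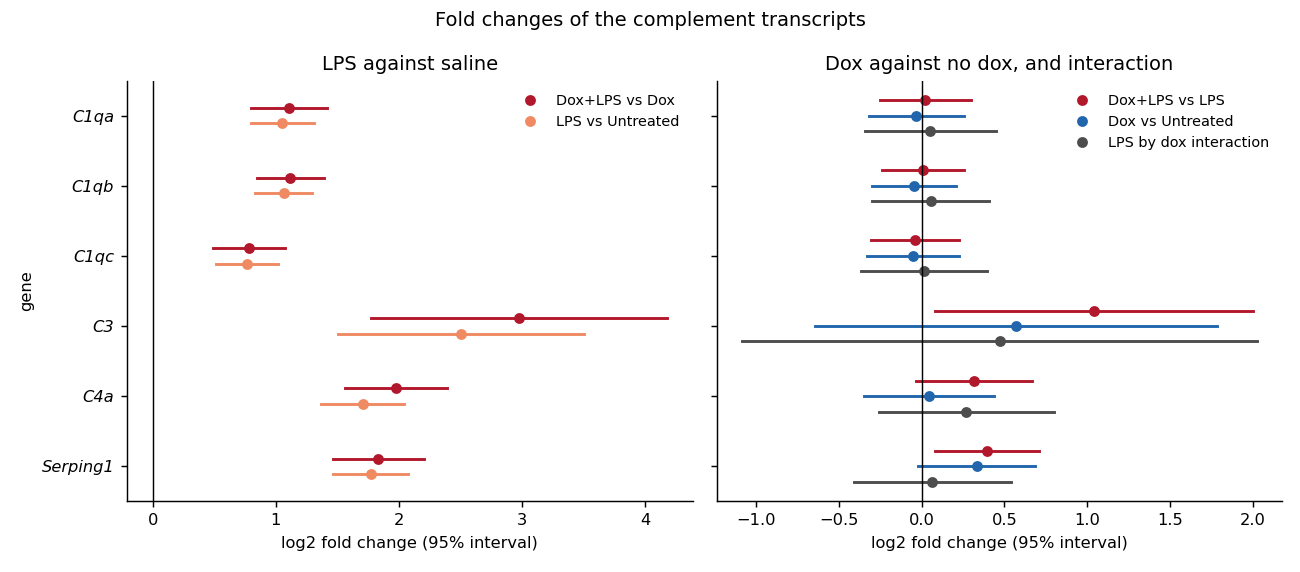
Log2 fold change of each complement transcript with its 95% interval, for Dox+LPS against Dox and LPS against Untreated mice (left) and for Dox+LPS against LPS mice, Dox against Untreated mice and the LPS by dox interaction (right); the vertical line marks no difference. All LPS effects lie between 0.77 and 2.98, and among the dox comparisons the intervals of C3 and Serping1 in Dox+LPS against LPS mice exclude 0 before adjustment.

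The LPS effect was then compared directly between mice with and without dox. The interaction, the log2 fold change between Dox+LPS and Dox mice minus that between LPS and Untreated mice, was 0.05 for C1qa, 0.05 for C1qb, 0.01 for C1qc, 0.47 for C3, 0.27 for C4a and 0.06 for Serping1. None was called (edgeR adjusted p between 0.750 and 0.987), nor was any panel gene (0.0%, with 69 of 770 at an unadjusted p under 0.05). The intervals of the C1q chains lay within -0.37 and 0.46, whereas that of C3 ran between -1.08 and 2.02. Without Untreated replicate 6 the C3 interaction was -0.24, so its sign rested on that mouse.

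By group mean, C1qa and C1qb ran in the order Dox+LPS, LPS, Untreated and Dox, C1qc in the order LPS, Dox+LPS, Untreated and Dox, and C3, C4a and Serping1 in the order Dox+LPS, LPS, Dox and Untreated. In each order the 2 LPS-injected groups overlapped each other, as did the 2 saline-injected groups. Between the neighbouring LPS- and saline-injected groups of each order there was a gap for C1qa, C1qb, C4a and Serping1. For C3, LPS replicate 3 (40.8) lay among the Dox mice (9.26 to 74.6), and for C1qc, Dox+LPS replicate 1 (805) lay under Untreated replicate 3 (1047). The same 2 mice crossed for C1qa (978 under 1103), whose Dox+LPS and Untreated groups are not neighbours in its order.

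Sex was examined because mouse C4a is known for a sex-limited protein. Since the C4a counts may hold C4b transcripts too, they cannot speak for that protein's transcript alone. With group as a covariate, the female minus male log2 difference was 0.10 for C4a (95% interval -0.18 to 0.37), and for the other genes it lay between -0.24 (C3) and 0.07 (C1qa). None of the 6 was called (edgeR adjusted p between 0.862 and 0.956), against 2 of 770 genes, both lower in females (0.26% called), and 59 genes at an unadjusted p under 0.05. C4a was 860.4 to 979.9 in the 3 female and 404 to 1013 in the 3 male Dox+LPS mice, and 713 to 740.4 in the 2 female and 456 to 734 in the 3 male LPS mice. Female and male mice thus overlapped in both groups, as in the Untreated mice (184.6 to 189.3 in 2 females and 169.8 to 307 in 6 males). Among Dox mice the 3 females had 197 to 212 and the single male 224, with no overlap.

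Within groups, the C1q chains varied together from mouse to mouse, C4a varied with them less tightly, and C3 followed them weakly. Over deviations from the group means in the 23 mice, Pearson r was 0.90 between C1qa and C1qb, 0.92 between C1qa and C1qc and 0.94 between C1qb and C1qc (Spearman rho 0.89, 0.91 and 0.89). C4a deviated with C1qa, C1qb and C1qc at r = 0.91, 0.86 and 0.83 (rho 0.80, 0.76 and 0.69). These values lean on the 2 mice that stood apart. Without Dox+LPS replicate 1 and Untreated replicate 3, r over 21 mice was 0.86, 0.88 and 0.85 among the C1q chains and 0.75, 0.70 and 0.60 between C4a and the chains in the same order. C3 correlated with the C1q chains at r of 0.20 to 0.24 and Serping1 with them at 0.26 to 0.39, while C3 correlated with C4a at 0.31 and with Serping1 at 0.51 (0.51 and 0.59 without the 2 mice farthest in C3, Untreated replicate 6 and Dox replicate 3). C4a correlated with Serping1 at 0.48 (0.60 without Dox+LPS replicate 1 and Untreated replicate 3). The 15 pairs are given as a description, since all values of a mouse share its library and its scaling.

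The mice that stood apart did so in different genes. Dox+LPS replicate 1 was lowest of its group in C1qa (978), C1qb (1623), C1qc (805), C3 (189) and C4a (404) but not in Serping1 (389, against 365 in replicate 2). It also had the highest count of Lcn2, the LPS-induced lipocalin, at 17611, where the other Dox+LPS mice had 9968 to 15073. Its homeostatic microglia sum of 2091 and endothelial sum of 1831 were the lowest of the group, whose other mice had 2995 to 3534 and 2429 to 2705. LPS replicate 3 was low in C3 (40.8), C4a (456) and Serping1 (207) and lowest in C1qa and C1qb, its Lcn2 count was 5449 where the other LPS mice had 10667 to 11938, and its macrophage sum was 228 where they had 546 to 1124. Untreated replicate 3 had the highest C1q and C4a counts of its group, an Lcn2 count of 733 where the other 7 had 13.6 to 128, and an endothelial sum of 2787 where they had 1918 to 2418, and its C3 (21.4) was under background. Untreated replicate 6 was high in C3 alone (117), with 108 for Serping1 and 729 for C1qa. The part of these marker levels in the complement values of the 4 mice was not tested.

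**Figure D4:**
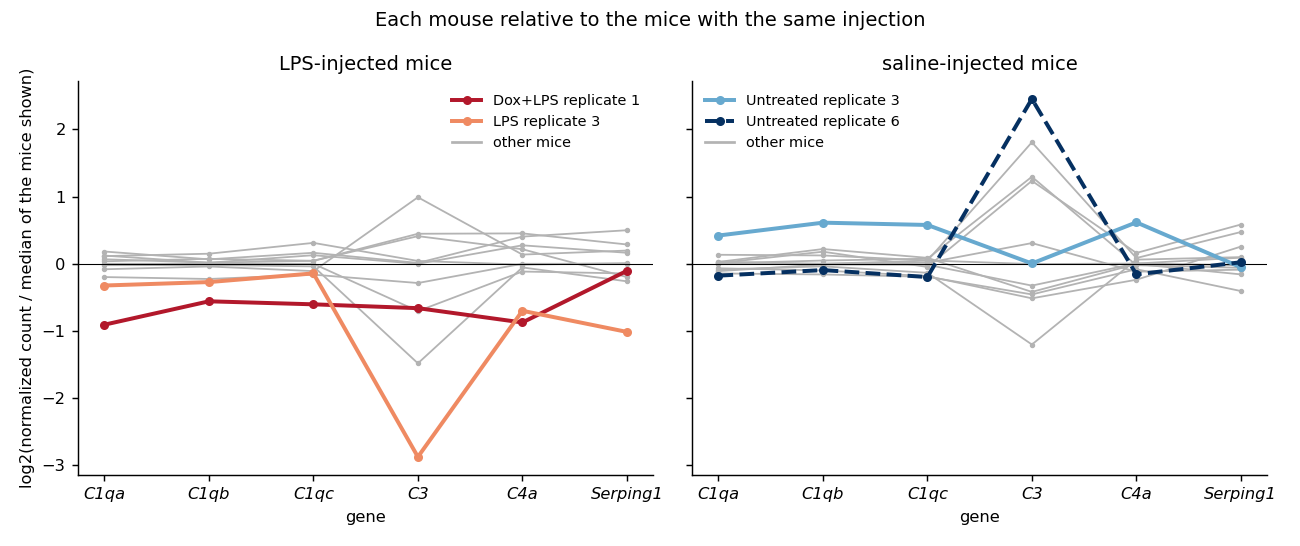
Log2 of each mouse's normalized count over the median of the mice with the same injection, for the 6 complement genes, in the 11 LPS-injected mice (left) and the 12 saline-injected mice (right); lines join the genes of a mouse. Dox+LPS replicate 1 is low in the C1q genes and C4a but near 0 for Serping1, LPS replicate 3 is lowest for C3 and Serping1, Untreated replicate 3 is high for the C1q genes and C4a, and Untreated replicate 6 for C3 alone.

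The panel genes whose log2 levels over the 23 mice were most like each complement gene were sought among 652 genes above background in at least 12 mice. Those levels fall into LPS- and saline-injected clusters, so r mostly ranks the genes by how cleanly they separate them. C1qa was most like C1qb, C4a and C1qc (r of 0.98 each), C1qb most like C1qa, Ly6a and C4a (each 0.98), and C1qc most like C1qa, C1qb (both 0.98) and Tyrobp, the microglial signalling adaptor DAP12 (0.96). C4a was most like C1qb, C1qa (both 0.98) and the transglutaminase Tgm2 (0.97), and Serping1 most like Serpina3n, a serine protease inhibitor of reactive astrocytes, the secreted phosphoprotein Spp1 and the ferroxidase Cp (0.97 each). C3 was most like the Src family kinase Lyn (0.93), the immunoproteasome subunit Psmb8 (0.91) and the NADPH oxidase subunit Ncf1 (0.90). Over deviations from group means, the genes nearest to each outside the 6 were Slamf9 for C1qb (r = 0.88), the CSF1 receptor Csf1r for C1qc (0.88), the endothelial adhesion molecule Pecam1 for C4a (0.85), Serpina3n for Serping1 (0.75) and Lyn for C3 (0.65), while the 3 nearest to C1qa were all among the 6. These values are a description over 23 mice that share libraries.

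Of 51 further complement genes listed, 6 were on the panel, and in each LPS comparison 3 of them were higher and 0 lower, where 16.8% (LPS) and 19.5% (Dox+LPS) of the panel was called higher. The receptor for C3a, C3ar1, averaged 209 ± 42.9 normalized counts in LPS mice against 55.8 ± 13.2 in Untreated mice, and 209 ± 20.4 in Dox+LPS mice against 57.6 ± 13.4 in Dox mice. The receptor for C5a, C5ar1, averaged 216 ± 27.6 in LPS mice against 39.5 ± 8.70 in Untreated mice, and 233 ± 21.5 in Dox+LPS mice against 35.2 ± 7.17 in Dox mice. Itgam, the alpha chain of complement receptor CR3, had smaller increases of 0.58 and 0.59 on the log2 scale (edgeR adjusted p = 0.0101 and 0.0219). Transcripts for C3 and for the receptors of C3a and C5a were thus all higher after LPS. Calr, the chaperone calreticulin that also binds C1q, was lower by a log2 fold change of -0.44 in LPS and -0.33 in Dox+LPS mice, with adjusted p = 2.1e-05 and 0.00117 but under the fold threshold. C6 and Itgax stayed under background in all 23 mice. None of the 6 was called between Dox and Untreated or between Dox+LPS and LPS mice.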

How the data were processed

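The authors deposited estimated counts per probe as exported from the nCounter instrument. All probe values are whole numbers, nothing was rounded, and no alignment was involved; the term estimated counts is used only because some header entries above the probe values have decimals. The panel has 757 endogenous and 13 housekeeping genes, 6 positive and 8 negative controls. Of the deposited columns, 1 belongs to none of the 23 labelled mice and was left out. The authors' own normalized table was not used. Their methods name edgeR 3.38.4, upper quartile scaling, RUVg and a likelihood ratio test.

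Upper quartile scaling over the 770 genes was followed by a quasi-likelihood test in edgeR 4.0.16 (R 4.3.3), in which 1 model held the 4 group means of the 23 mice, and p-values were adjusted over the 770 genes by Benjamini-Hochberg. Calls needed an adjusted p below 0.05 together with a log2 fold change beyond 0.5 in either direction. Normalized counts are counts divided by each mouse's effective library size, itself divided by the average over mice. No low-count filter was used. Ratios were tested with scipy 1.17.1 by exact permutation. Likeness used log2(normalized count + 1). The fit and the ratio test were tested on simulated data. Totals of 645971 to 804471 counts per mouse bound the counting error, which is largest for C3.

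Named genes are the 6 complement genes, measured genes of a complement list where called, the 3 nearest genes by correlation, and others where a result turns on them (for C6, Itgax, Calr and single markers this choice followed a look at their values). The genes and lists were chosen with earlier results of these data known. Alternatives covered 4 scalings, DESeq2 1.42.0, limma-voom 3.58.1, edgeR's likelihood ratio test without and with 1 RUVg factor, a low-count filter, background subtraction, sex, and left-out mice.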

Additional observations from a re-analysis of the deposited data

Results flagged for a closer look

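Of 36 sets of values (6 genes and 3 ratios in 4 groups), 11 held a mouse whose gap to the nearest other mouse was too large a part of the range by Dixon's criterion, which chance exceeds in about 1 in 20 groups. The sets are not independent, since 2 mice account for 9 of them. Dox+LPS replicate 1 was far under its group for C1qa (978, where the others had 1732 to 2079), C1qb (1623, others 2324 to 2515) and C4a (404, others 814 to 1013). Its C1qb to C1qa ratio of 1.66 (others 1.20 to 1.34) and C1qc to C1qa ratio of 0.824 (others 0.655 to 0.671) were far above the group.

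Untreated replicate 3 was far above its group for C1qa (1103, others 729 to 905), C1qb (1565, others 917 to 1192), C1qc (1047, others 612 to 746) and C4a (307, others 169.8 to 201). Untreated replicate 6 was far above its group for C3 (117, others 14.9 to 26.4). LPS replicate 3 was far under its group for C4a (456, others 683 to 740.4).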

How the results depend on the processing

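All 6 complement genes were called higher in both LPS comparisons, and 0 were called by dox or by the interaction, under each of 38 alternatives (23 of them leaving out 1 mouse). By sex 0 were called under each of these except sex as a covariate, which is that comparison's own term. C3 moved most, between 2.11 and 3.22 on the log2 scale for LPS against Untreated mice (highest adjusted p 0.00368). It was 3.11 without the 3 Untreated mice of another mouse number series (replicates 6, 7 and 8), which include the mouse with high C3. Scaling moved the panel median by over 0.1: it was -0.07 between Dox+LPS and Dox mice with the upper quartile and 0.07 with housekeeping genes, and -0.04 and 0.08 (positive controls) between LPS and Untreated mice. No paired analysis was possible because replicate numbers only name the mice. Depth limits C3, which was under background in 6 of the 12 saline-injected mice.

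The C1qc to C1qb ratio between Dox+LPS and Dox mice ran between -0.40 and -0.31 on the log2 scale with mice left out. It missed the threshold in 9 of those settings (adjusted p between 0.0635 and 0.0952), since fewer mice raise the smallest p the exact test can give. The C1qc to C1qa ratio ran between -0.36 and -0.28 there, and it passed (adjusted p = 0.0476) at -0.36 without Dox+LPS replicate 1 and without both that mouse and LPS replicate 3, an alternative chosen after seeing the data.

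Differences that were not called changed sign around 0, and the cause was not tested. Between Dox and Untreated mice these were C1qa (0.021) and C1qb (0.0068) with positive control scaling, and C4a with housekeeping scaling (-0.0028), with sex as a covariate (-0.0045) and without the 3 Untreated mice (-0.055). With 1 mouse left out in turn, that comparison ran between -0.057 and 0.036 for C1qa and between -0.091 and 0.047 for C1qb. For C1qc it ran between -0.083 and 0.045. The 15 other alternatives, among them that without the 3 Untreated mice, went as low as -0.11 (C1qa), -0.16 (C1qb) and -0.17 (C1qc). Between Dox+LPS and LPS mice C1qa was -0.0047 with limma-voom and C1qb -0.00021 with the low-count filter. With mice left out they ran between -0.032 and 0.15 (C1qa), -0.038 and 0.092 (C1qb) and -0.080 and 0.053 (C1qc).

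The interaction of C1qc was -0.0036 with positive control scaling, -0.0062 with limma-voom and -0.0011 with the low-count filter, and that of C3 was -0.14 without the 3 Untreated mice. With mice left out, interactions ran between -0.069 and 0.18 (C1qa), -0.085 and 0.17 (C1qb), -0.12 and 0.14 (C1qc), -0.24 and 0.79 (C3) and -0.078 and 0.17 (Serping1). For female against male mice C1qc was -0.0024 with positive control scaling, and Serping1 was 0.0068 with limma-voom and 0.0072 without the 3 Untreated mice. The ranges with mice left out were -0.043 to 0.11 (C1qa), -0.069 to 0.059 (C1qc), -0.057 to 0.16 (C4a) and -0.16 to 0.0080 (Serping1).

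Among ratios that did not differ, C1qb to C1qa was -0.013 for LPS against Untreated mice without the 3 Untreated mice. With mice left out it ran between -0.025 and 0.077 for Dox+LPS against Dox, -0.045 and 0.023 for Dox against Untreated, and -0.051 and 0.042 for Dox+LPS against LPS mice. For Dox against Untreated mice C1qc to C1qa ran between -0.055 and 0.0082 and C1qc to C1qb between -0.042 and 0.049.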
